A study of Sus scrofa with 3 samples.

Results

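miR-301a was followed across small RNA libraries of 3 porcine skeletal muscles, the red *peroneal longus* (PL), the intermediate *psoas major* muscle (PMM), and the white *longissimus dorsi* muscle (LDM). The muscles came from female Landrace pigs aged 210 days, for which the labels name no treatment, and each is represented by 1 library. RNA of 3 pigs was pooled for PL, while the study's methods state for PMM and LDM only that the data came from the same pigs in an earlier study. PL was thus sequenced in another batch than PMM and LDM, so a difference of PL from either and a difference of batch cannot be told apart. The entries for miR-301a were those of the conserved miRNAs whose precursors in other mammals are most often named miR-301a. This gave 1 entry, from the 3p arm, of 152 listed miRNAs, of which 7 repeat the sequence of another entry. miR-301a was chosen because its level fell in the order PL, PMM, LDM in these same libraries, so this order is a description here and is not tested.

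MicroRNAs guide Argonaute proteins to messenger RNAs mainly through the seed, bases 2 to 8 from the 5' end, and lower the output of the messengers they pair with. miR-301a belongs to the family of miR-130, miR-301, and miR-454, whose members share 1 seed. In human, miR-301a and miR-454 are encoded in an intron of *SKA2*, a gene for a protein of the kinetochore. In human cancer cells miR-301a is known to repress *NKRF*, an inhibitor of NF-kB, and in fat cell precursors miR-130 is known to repress *PPARG*, a driver of adipogenesis.

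The sequences are shown because the seed defines the family, and the bases after it tell its members apart. Capitals mark the seed.
miR-301a-3p: cAGTGCAAtagtattgtcaaagc
miR-301b-3p: cAGTGCAAtgatattgtcaaagc
miR-454-3p: tAGTGCAAtattgcttatagggt
miR-302a-3p: tAAGTGCTtccatgttttagt
Of the unique sequences in the table, 3 (2.07%) have the seed of miR-301a, and these are the first 3 shown. miR-301b-3p differs from miR-301a-3p by A10G and G11A (miR-301a-3p base, position from its 5' end, miR-301b-3p base), so that reads of these miRNAs are told apart by neighboring bases only, and how reads with an error there were assigned is not given in the sources used here. miR-454-3p differs from miR-301a-3p at 10 of 23 positions. The last sequence, from a family of embryonic stem cells, has the core of the seed shifted by a base and is shown for contrast.

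The table places the miR-301a precursor on chromosome 11 of Sscrofa10.2, plus strand, from 37079084 to 37079169. The precursor of miR-454 is listed on the same strand from 37088039 to 37088181, with 8869 bases between them. That of miR-301b is listed on chromosome 13, minus strand, from 53695887 to 53695980. A RefSeq gene table of a later build (Sscrofa11.1) has *SKA2* on a chromosome with another number than the one listed for miR-301a. The chromosomes are therefore given as deposited, and which genes these precursors overlap was not determined, since a genome of this build was not used here. The listed precursor of 85 nt is shown next because both sides of the hairpin can be read in it, with the mature miRNA in capitals.
miR-301a precursor: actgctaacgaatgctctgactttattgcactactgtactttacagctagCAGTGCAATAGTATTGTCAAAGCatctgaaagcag
The mature sequence spans bases 51 to 73 and matches the precursor exactly. In the minimum free energy structure (-29.1 kcal/mol) 17 of its 23 bases are paired, with partners between bases 14 and 32. All 7 seed bases pair with the stretch TTGCACT at bases 26 to 32, which lies on the 5p side and is the reverse complement of the seed. None of the entries analysed here is from the 5p arm of this precursor, so the use of its arms could not be compared.

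The PL library held 56 reads of miR-301a-3p, against 54 in PMM and 7 in LDM. RPM stands for reads per 1 M raw reads, of which PL had 9.17 M, PMM 18.46 M, and LDM 16.62 M. The level of miR-301a-3p was 6.11 RPM in PL (exact 95% Poisson interval 4.61 to 7.93), 2.93 RPM in PMM (2.20 to 3.82), and 0.421 RPM in LDM (0.169 to 0.868). The 3 intervals do not overlap, but they cover counting error only, since reads were not counted by molecule and there are no replicates to show the spread between animals. In whole muscle, fewer cells of a type and less of the miRNA per cell cannot be told apart. The estimate for LDM is the least precise, as its 7 reads have an interval of 2.81 to 14.4 reads.

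**Figure D1:**
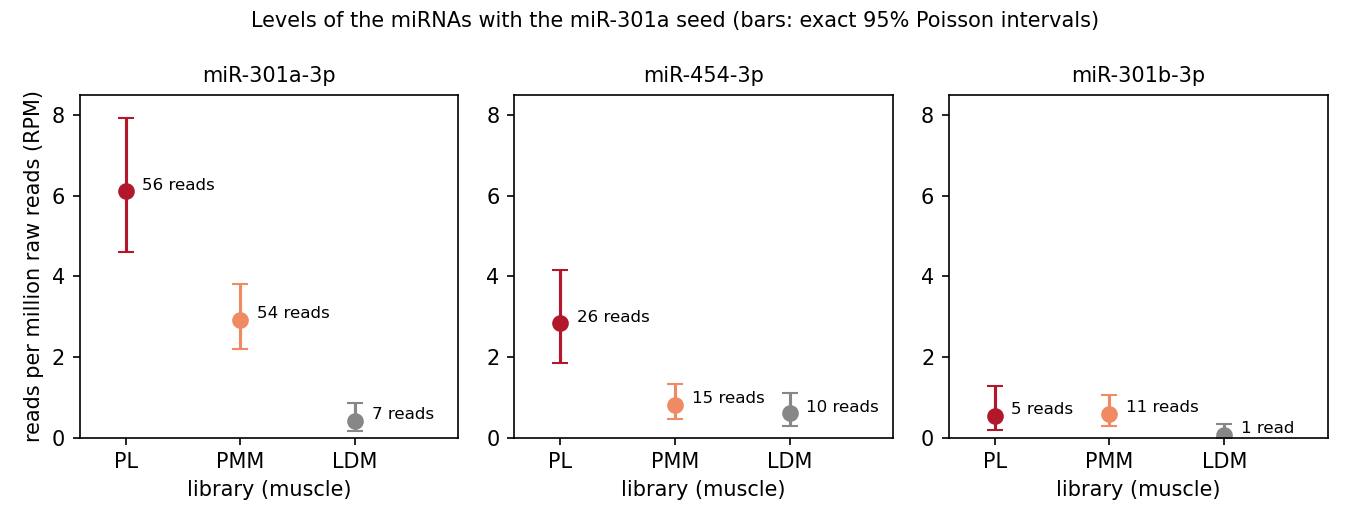
Levels of the 3 miRNAs that share the miR-301a seed, in RPM (vertical axis), in the libraries of PL, PMM, and LDM (horizontal axis). Points are single libraries with their reads beside them, and bars are exact 95% Poisson intervals. miR-301a-3p stood at 6.11 RPM in PL, with 2.93 in PMM and 0.421 in LDM, miR-454-3p was highest in PL (2.84 RPM), and miR-301b-3p was lowest in LDM (0.0602 RPM).

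As a ratio of RPM, miR-301a-3p was 2.09-fold higher in PL than in PMM (exact 95% interval 1.41 to 3.09), and 14.5-fold higher in PL than in LDM (6.59 to 37.7), but scaled by the summed reads of the conserved miRNAs it was lower in PL than in PMM, and 4.23-fold higher in PL than in LDM. Between PMM and LDM, which were not sequenced with PL, the ratio was 6.95 (3.15 to 18.1). On the log2 scale the step between PMM and LDM (2.80, interval 1.66 to 4.18) was thus larger per raw reads than that between PL and PMM (1.06, interval 0.50 to 1.63). These intervals nearly meet, and they overlap under some of the other library totals given below. miR-301a-3p was 1 of 37 miRNAs of 108 (34.3%) with more than 1.5-fold higher RPM in PL than in PMM. It was also 1 of 44 (40.7%) for PL over LDM and of 57 (52.8%) for PMM over LDM, so a level over 1.5-fold higher was common. Of the 105 conserved miRNAs with reads in PL, it was in place 13 by reads. In PMM it was in place 21 of 114, and in LDM in place 42 of 108. It stood between miR-411c-5p (58 reads) and miR-1-3p (44 reads) in PL, and between miR-6529-3p (58 reads) and miR-2904-5p (48 reads) in PMM. In LDM it was tied with miR-34b-5p and miR-96-5p at 7 reads, above miR-141-3p with 6 and below miR-1983-5p with 9.

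The higher level in PL than in PMM depended on the library total, while LDM was lowest under each total tried. The conserved miRNAs are a small part of each library, and miR-26b-5p alone held 90.5% of their reads in PL (of 23583), against 62.7% in PMM (of 16286) and 62.9% in LDM (of 12463). Per 1000 conserved reads, 2.37 were of miR-301a-3p in PL, against 3.32 in PMM and 0.562 in LDM, so that PMM was highest. The ratio of PL to PMM was then 0.716, with an interval of 0.484 to 1.06 that includes equality. With the reads of miR-26b-5p left out of the total, the values were 25.1 per 1000 in PL, 8.88 in PMM, and 1.51 in LDM. PL was highest again, at 2.82-fold the level of PMM (1.91 to 4.18). With median-of-ratios size factors the ratio of PL to PMM was 2.08, and with the trimmed mean of M values (TMM) it was 1.83. The order PL, PMM, LDM thus held under 4 of the 5 library totals. LDM was lowest under all 5, at a PMM to LDM ratio between 4.93 with TMM and 6.95 with raw reads. The ratio of PL to LDM moved more, between 4.23 with the summed conserved reads (1.92 to 11.0) and 16.6 without miR-26b-5p (7.54 to 43.1).

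**Figure D2:**
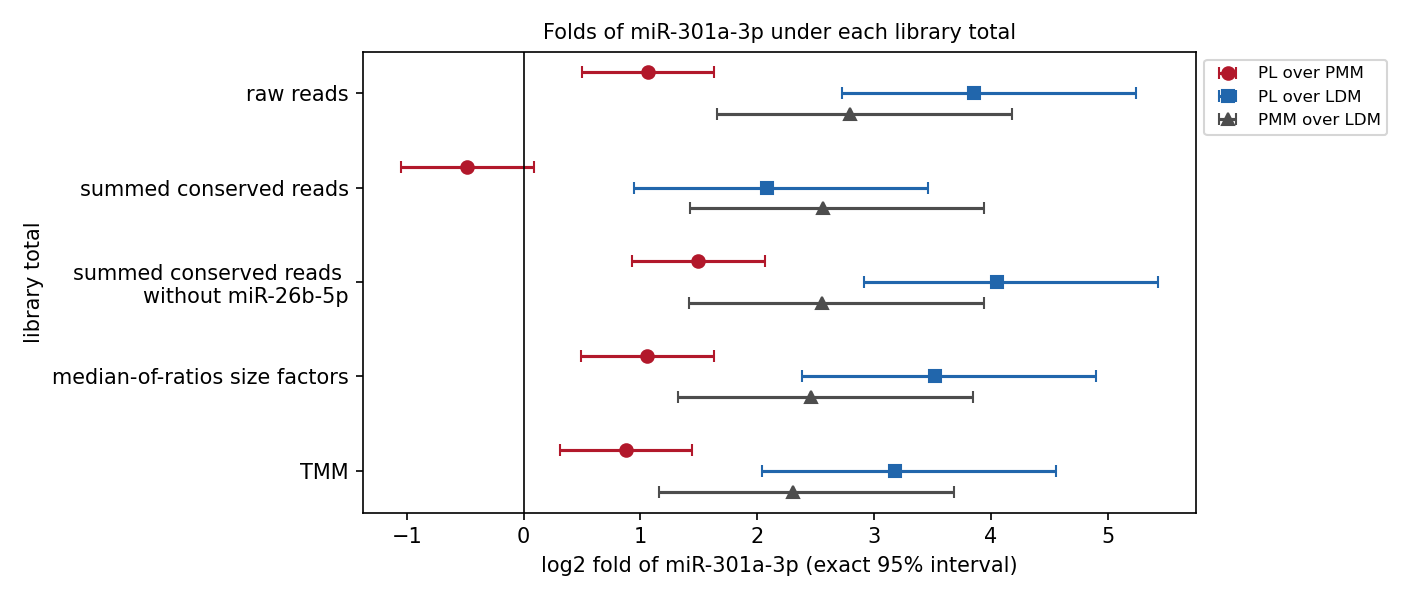
Log2 folds of miR-301a-3p (horizontal axis, bars are exact 95% intervals) for PL over PMM, PL over LDM, and PMM over LDM under 5 library totals (vertical axis). PL over PMM lies at 1.06 with raw reads and at -0.48 with the summed conserved reads, whereas PMM over LDM stays between 2.30 and 2.80.

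The fold of miR-301a-3p relative to the median fold of the 108 unique miRNAs with at least 3 reads is the same under every total. This holds by construction, since the median fold then serves as the scale. It and the places by fold below rest on the reads by which miR-301a was chosen, and are a description only. With 0.5 reads added to each count, this median log2 fold was -0.21 for PL over PMM, 0.16 for PL over LDM, and 0.59 for PMM over LDM on the scale of raw reads. miR-301a-3p lay above it by 1.27 for PL over PMM, 3.61 for PL over LDM, and 2.12 for PMM over LDM. Ordered by fold, it was in place 26 of 108 from the top for PL over PMM, in place 8 for PL over LDM, and in place 10 for PMM over LDM. The order of PL over PMM over LDM itself was not rare, as 27 of the 108 miRNAs (25.0%) had it (11 when scaled by the summed conserved reads), and 16 (14.8%) had it with more than 1.5-fold at each step. Among the 46 miRNAs with at least 30 reads, 14 (30.4%) had the order and 9 (19.6%) had it with 1.5-fold steps, miR-301a-3p included.

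miR-454-3p, listed beside miR-301a, was also highest in PL per raw reads, but PMM and LDM did not separate. Its 26 reads in PL, against 15 in PMM and 10 in LDM, correspond to 2.84 RPM for PL (1.85 to 4.15), 0.813 RPM for PMM (0.455 to 1.34), and 0.602 RPM for LDM (0.289 to 1.11). The intervals of PMM and LDM overlap. Its ratio was 3.49 for PL over PMM (1.78 to 7.09) and 4.71 for PL over LDM (2.20 to 11.0). For PMM over LDM the ratio was 1.35 (0.568 to 3.36), and it turned below equality with TMM (0.959). The steps PL over PMM and PMM over LDM differ as point estimates, but their intervals overlap, so even steps are not excluded. The excess in PL was within counting error when scaled by the summed conserved reads, at a ratio of 1.20 over PMM (0.611 to 2.43) and 1.37 over LDM (0.641 to 3.19). A miRNA was called different between libraries where the Audic-Claverie, Fisher's exact, and chi-squared tests all gave a Bonferroni-adjusted p under 0.001, which compares libraries and not muscles. miR-454-3p was not called, with an adjusted p (largest of the 3 tests, Fisher's exact test among them) of 0.0093 for PL against PMM, 0.0012 for PL against LDM, and 1 for PMM against LDM. Its 5p arm had 1 read in each library.

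The balance between miR-301a-3p and miR-454-3p within a library needs no library total. Of the reads of both, the share of miR-301a-3p was 68.3% in PL (95% Clopper-Pearson interval 57.1% to 78.1%, 82 reads), 78.3% in PMM (66.7% to 87.3%, 69 reads), and 41.2% in LDM (18.4% to 67.1%, 17 reads). For each read of miR-454-3p, PL had 2.15 reads of miR-301a-3p, PMM 3.60, and LDM 0.700. miR-454-3p thus had more reads than miR-301a-3p in LDM only. The intervals of PMM and LDM overlap slightly, and that of PL overlaps both. The shares rest on the reads by which miR-301a was chosen, so no test is given.

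miR-301b-3p, the closest sequence to miR-301a-3p, was scarce, as PL held 5 reads of it, PMM 11, and LDM 1. Its level was 0.545 RPM for PL (0.177 to 1.27), 0.596 RPM for PMM (0.297 to 1.07), and 0.0602 RPM for LDM (0.00152 to 0.335). Per raw reads PL and PMM thus differed by less than counting error, with a ratio of 0.915 (0.249 to 2.86). This ratio was above equality without miR-26b-5p in the total (log2 fold 0.31), and was 0.314 (0.0855 to 0.980) when scaled by the summed conserved reads. The ratio of PMM to LDM of 9.90 rests on a single read in LDM (1.44 to 426), as does that of PL to LDM of 9.06. The lower bound of the PL to LDM ratio was 1.01 per raw reads but below equality with median-of-ratios size factors (0.803), TMM (0.632), and the summed conserved reads (0.296, at a ratio of 2.64). No pair was called for miR-301b-3p, and the smallest adjusted p over the pairs (Fisher's exact test and the other 2 tests) was 0.77 for PMM against LDM. The entry named miR-301b-5p had a read each in PL and LDM and 0 in PMM, and its listed sequence is 1 base away from its precursor. The 0 reads in PMM allow a level of up to 0.200 RPM by the exact interval and 0.163 RPM by a limit of 3 reads.

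The 3 miRNAs with this seed summed to 87 reads in PL (9.49 RPM, 7.60 to 11.7), 80 in PMM (4.33 RPM, 3.44 to 5.39), and 18 in LDM (1.08 RPM, 0.642 to 1.71). The share of miR-301a-3p in the sum was 64.4% for PL (95% Clopper-Pearson interval 53.4% to 74.4%) and 67.5% for PMM (56.1% to 77.6%). For LDM it was 38.9% (17.3% to 64.3%). It was thus most of the sum in PL and PMM. The interval of LDM, from 18 reads, includes a majority and overlaps the other intervals. Without miR-301a-3p the other members summed to 3.38 RPM in PL (2.30 to 4.80), 1.41 RPM in PMM (0.920 to 2.06), and 0.662 RPM in LDM (0.330 to 1.18). These stood in the same order, with overlapping intervals for PMM and LDM, and both sums were lower in PL than in PMM (log2 fold -0.41 with miR-301a-3p and -0.28 without) when scaled by the summed conserved reads. With that total the ratio of PL to LDM was 2.55 for the sum (1.53 to 4.51), against 8.76 per raw reads, and 1.49 without miR-301a-3p (0.729 to 3.28), against 5.11. Of the 3 other entries of the family with at least 3 reads, 0 were called in any pair, where 21.3% of the 108 miRNAs were called for PL against PMM, 23.1% for PL against LDM, and 12.0% for PMM against LDM. These entries are miR-454-3p, miR-301b-3p, and the 5p arm of miR-454, which lacks the seed and with 1 read per library has folds set by the raw totals alone. Of 8 family names looked for, 3 had entries among the conserved miRNAs. Others, such as miR-130a and miR-130b, had none, so the sums lack them. The known porcine miRNAs were not analysed here. Whether reads of miR-301a are also counted among the known miRNAs was thus not checked.

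miR-302a-3p, which has the shifted seed and is listed with the same sequence as miR-302b-3p and miR-302d-3p, was counted 10 times in PL, 13 times in PMM, and 12 times in LDM. Its levels were 1.09 RPM (PL), 0.704 RPM (PMM), and 0.722 RPM (LDM), with no pair called.

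The miRNAs most like miR-301a-3p in pattern were found by the Euclidean distance of log2 RPM centered over the 3 libraries, among 45 others with at least 30 reads. In order of distance they were miR-411c-3p (0.92), miR-431-5p (1.05), miR-377-3p (1.14), miR-188-5p (1.21), and miR-5105-3p (1.48), and miR-454-3p was next at 1.66. For miR-411c-3p these levels were 11.7 RPM (PL), 3.14 RPM (PMM), and 1.14 RPM (LDM). miR-431-5p and miR-377-3p, which in human lie in the imprinted DLK1-DIO3 region, stood at 3.05 and 6.32 RPM in PL, 0.650 and 0.975 RPM in PMM, and 0.241 RPM each in LDM. Next came miR-188-5p (4.36 RPM in PL, 1.73 in PMM, 0.782 in LDM) and miR-5105-3p (12.3 RPM in PL, 4.23 in PMM, 2.59 in LDM). Both had shallower steps than miR-411c-3p, miR-431-5p, and miR-377-3p. Per raw reads their log2 folds of PL over PMM (1.33 and 1.54) were larger than that of miR-301a-3p (1.06). Those of PMM over LDM (1.15 and 0.71) were smaller than that of miR-301a-3p (2.80). With raw reads as the total, all 5 had their larger log2 step between PL and PMM, whereas that of miR-301a-3p was between PMM and LDM. This contrast depends on the total. Scaling by the summed conserved reads shifts each log2 fold by -1.54 for PL over PMM and by -0.23 for PMM over LDM. The larger step of all 5 was then also between PMM and LDM. The distances are the same under every library total by construction. With only 3 points per miRNA this likeness is a description, and it was chosen on the same reads.

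**Figure D3:**
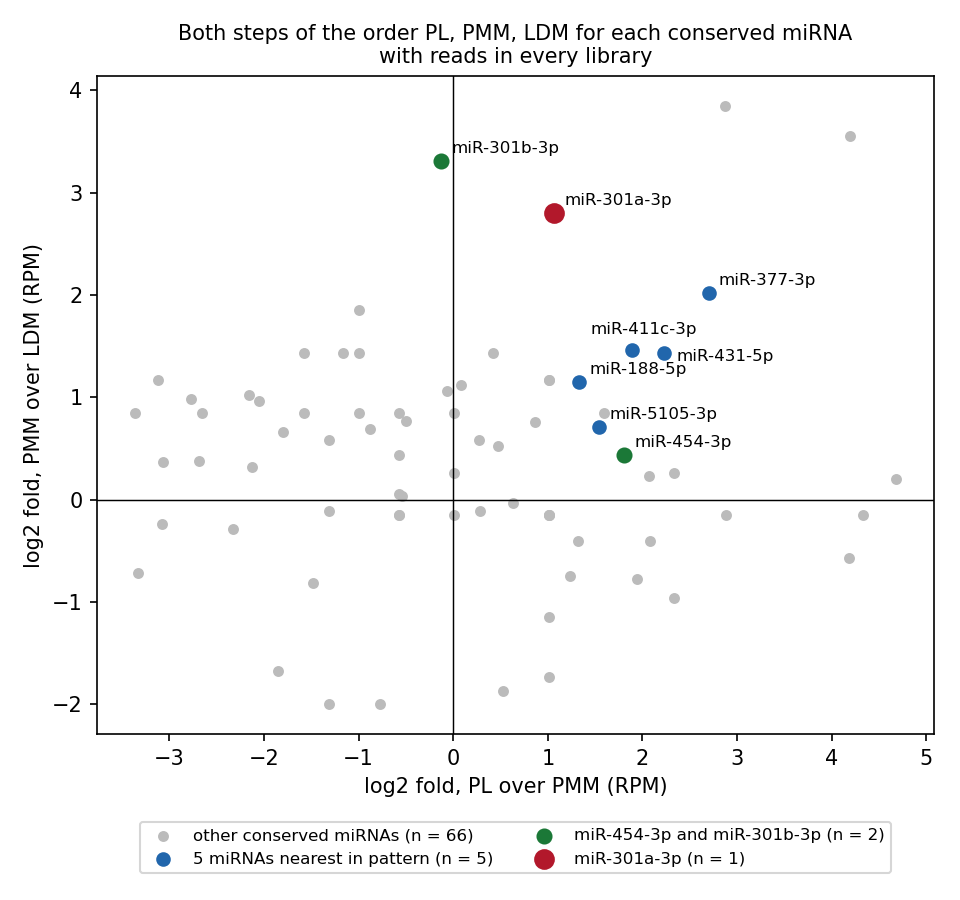
Log2 fold of PL over PMM (horizontal axis) against that of PMM over LDM (vertical axis), both from RPM, for the 74 unique conserved miRNAs with at least 3 reads that had reads in every library. Each point is 1 miRNA. miR-301a-3p (1.06 and 2.80) lies at the upper right with raw reads as the total, with miR-454-3p (1.80 and 0.43) below it and miR-301b-3p (-0.13 and 3.31) left of it.

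The summed entries of muscle miRNAs had reads in every library, but this is a weak check of the tissue. The study reports muscle miRNAs among its abundant known porcine miRNAs, which were not analysed here. The entries below are thus only those listed as conserved, and do not give the muscle miRNA content of a library. Of the muscle list, 2 of 9 names had entries, miR-1 and miR-208a, with summed levels of 18.8 RPM in PL, against 51.1 in PMM and 81.4 in LDM. miR-208a-3p (12.9 RPM in PL, 0.704 in PMM, 0.0602 in LDM) had the order of miR-301a-3p, while the miR-1-3p entry (4.80 RPM in PL, 48.3 in PMM, 79.3 in LDM) had the reverse. In LDM, miR-208a-3p had 1 read and miR-208a-5p had 0. Of the other cell types, 1 of 7 leukocyte names had entries (1.64 RPM in PL, 2.28 in PMM, 2.23 in LDM). So had 3 of 7 epithelial names (0.981 RPM in PL, 4.23 in PMM, 1.93 in LDM) and 2 of 6 neural names (0 reads in PL, 189 in PMM, 21 in LDM). The only entry of 5 red cell and platelet names, miR-96-5p, was at 10 reads in PL, against 4 in PMM and 7 in LDM. None of these summed levels fell in the order PL, PMM, LDM, but each rests on the few names with entries among the conserved miRNAs. The endothelial and the adipose or fibroblast names had no entry in this table. A part of any of these cell types in the level of miR-301a-3p was not tested.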

How the data were processed

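Small RNA of PL, PMM, and LDM was sequenced with 1 library per muscle. Reads lacking the 3' adapter, outside 16 to 29 nt, or of junk sequence were discarded by the authors, who used BLAST against miRBase 19 precursors of pig and 24 other mammals and against Sscrofa10.2 (named in the submitters' processing notes and the methods), and deposited whole read counts per miRNA without normalization. A mark in place of a number (118 of 456 cells) was read as 0 reads. Raw reads stated by the study (9.17 M in PL, 18.46 M in PMM, and 16.62 M in LDM) were used as totals, since the table holds few of each library's reads.

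Identical mature sequences were merged, keeping the highest value per library, and unique miRNAs with at least 3 reads (108) were tested two-sided with the Audic-Claverie test, the chi-squared 2 × 2 test (uncorrected), and Fisher's exact test, and called where all 3 Bonferroni-adjusted p were under 0.001. Ratios have exact binomial intervals and levels exact Poisson intervals. For distances of pattern and median folds, 0.5 reads were added. The calls were tested on simulated data. Alternatives were 4 other library totals (TMM trimmed 30% of M and 5% of A values), no minimum of reads or 10, Benjamini-Hochberg adjustment, Fisher's exact test alone, and every row of the table. miRNAs named are the miR-301a entry, its seed family, the 5 nearest in pattern, those next to it in level, and members of set lists, of which 1 is not reported here. The members, lists, and tests were chosen with earlier results of these data known. The hairpin was folded with RNAfold 2.7.2, and the other steps used scipy 1.17.1, numpy 2.4.6, matplotlib 3.10.9, and pandas 2.3.3 under Python 3.11.15.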

Additional observations from a re-analysis of the deposited data

How the results depend on the processing

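No paired analysis was possible because the muscles have 1 library each, so that none could be left out either. The share of arms was not computed, as miR-301a has 1 listed arm. Scaled by the summed conserved reads, miR-301a-3p had a log2 fold of -0.48 for PL over PMM and 2.08 for PL over LDM, against 1.06 and 3.86 with raw reads. With it the median over all 108 miRNAs moved by -1.54 for PL over PMM, -1.78 for PL over LDM, and -0.23 for PMM over LDM. The log2 fold of the summed seed family for PL over PMM was then -0.41, and -0.28 without miR-301a-3p, against 1.13 and 1.26 with raw reads. The log2 fold of miR-454-3p for PMM over LDM was -0.061 with TMM, and that of miR-301b-3p for PL over PMM was 0.31 without miR-26b-5p in the total. The folds of the family under other totals were chosen after seeing the data. The number of miRNAs in the order PL, PMM, LDM (27) was 11 when scaled by the summed conserved reads, and 16 where each step had to exceed 1.5-fold, which is fewer by construction. The numbers of differing miRNAs, which are 23 for PL against PMM, 25 for PL against LDM, and 13 for PMM against LDM, stayed within 1.5 times in all 27 alternatives. For the total without miR-26b-5p, that miRNA was left untested. Of the 5 miRNAs nearest in pattern, 3 remained among the nearest with a minimum of 10 reads. The depth limits LDM most, where 7 reads carry each statement on miR-301a-3p.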
